A study of Mus musculus with 10 samples.

Results

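Glycolysis splits glucose into pyruvate, and the pentose phosphate pathway branches off it to supply ribose and NADPH. The 36 genes described here were a fixed list of glucose and lactate transporters, enzymes of both pathways and enzymes at their exits. They were chosen by function, with earlier results of these data known. Among probe sets annotated to 1 gene, the one with the highest average level on the 10 arrays stood for each gene. Of the 36 genes, 33 had such a probe set, and Gpi1, Eno1 and G6pdx were not analysed here. Hk3 and Slc16a3 lay below the array's median over all probe sets on every array, at 2.35 to 2.48 for the probe sets of Hk3 and 2.67 to 3.18 for Slc16a3 on the log2 scale, and were set aside as not above background. The remaining 31 stood among 11939 genes kept by the same filter.

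Resting T cells burn glucose slowly, and activated T cells take up more of it and release lactate. Glucose enters through Slc2a1 and Slc2a3, is trapped by hexokinases and committed by phosphofructokinases, and is split by aldolases. The lower enzymes carry the resulting trioses to pyruvate, which lactate dehydrogenases turn into lactate or which pyruvate dehydrogenase feeds to the mitochondria. Regulatory T cells, marked by the transcription factor Foxp3, have been described as relying less on this route than other activated CD4 T cells.

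RNA of mouse CD4 T cells, sorted from pooled lymph node and spleen of mice aged 6 to 8 weeks, was measured on 10 Affymetrix arrays with 1 array per group. The GFPfoxp3 group held GFP+ cells of Foxp3(gfp/gfp) females, whose knock-in allele encodes a fluorescent Foxp3 fusion protein, and the CD25pos and CD25neg groups held GFP- cells of such mice with and without CD25, all backcrossed to C57BL/6 for 8 to 10 generations from 129/Sv. The GFPko group held GFP+ cells of Foxp3(gfpko/wt) females, in which GFP replaces Foxp3 on 1 X chromosome, backcrossed for 5 generations. These animals also carry cells that use the intact allele, so the GFPko cells developed beside normal regulatory T cells. From mice injected with IL-2, the 3 populations other than CD25neg were sorted again, after 4 injections of 50 ng per g within 24 h, 30 min after the last one. The labels of the untreated arrays do not say whether vehicle was given. The transduced cells were CD25+ CD4+ C57BL/6 cells, stimulated in culture with anti-CD3, anti-CD28 and IL-2 and given the retroviral vector MigR1 empty, with the cyclic nucleotide phosphodiesterase PDE3B, or with PDE3B(H801A). They spent 3 weeks in TCRalpha-deficient recipients together with transduced CD25- CD4+ Ly5.1+ cells, and were sorted as GFP+ GITR+ CD4+ Ly5.1- cells.

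Values are log2 expression, normalized together by the authors, so a difference of 1 is a 2-fold change. Array medians lay between 3.04 and 3.22. Cd4 was bright on all arrays, at 8.05 to 10.78. Foxp3 was at 10.86 to 11.52 in GFPfoxp3 and transduced cells, 8.33 and 9.39 in GFPko cells and 2.45 to 3.90 in GFP- cells. Pde3b was at 6.91 with the PDE3B vector against 7.43 with the empty one, so its probe set did not show the vector's insert. Control probe sets for Actb were further apart in transduced cells, by 5.87 to 6.38 between the 3′ and 5′ ends, than in the 7 sorted arrays, by 2.70 to 3.80. Transduced and sorted cells are therefore described apart. No array had a replicate, so the number of arrays limits precision throughout.

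Upstream sequences are shown for 6 genes, because these genes differed in direction between populations or carry matches to a motif. The genes were chosen after their values and matches were seen. Each is the 250 bases before the RefSeq transcript start in GRCm38.p6, 5′ to 3′ on the gene's strand. Capitals mark ACGTG or its reverse complement CACGT, a form of the core bound by HIF, the hypoxia-inducible factor. The form GCGTG was not searched and is not marked. The letters CACGTG, an E-box bound by Myc, contain ACGTG on both strands.

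Tpi1 (chr6:124814159-124814408, minus strand): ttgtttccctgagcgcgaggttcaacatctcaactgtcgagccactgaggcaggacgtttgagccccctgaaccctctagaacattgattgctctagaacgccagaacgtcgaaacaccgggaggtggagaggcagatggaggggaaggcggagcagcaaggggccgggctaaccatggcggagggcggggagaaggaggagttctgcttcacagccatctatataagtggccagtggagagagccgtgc
Aldoc (chr11:78322823-78323072, plus strand): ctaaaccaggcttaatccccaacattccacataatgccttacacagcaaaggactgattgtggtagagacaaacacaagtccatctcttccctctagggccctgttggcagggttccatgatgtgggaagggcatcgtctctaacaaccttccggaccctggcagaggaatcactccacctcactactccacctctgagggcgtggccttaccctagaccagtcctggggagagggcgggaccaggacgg
Gpd2 (chr2:57237428-57237677, plus strand): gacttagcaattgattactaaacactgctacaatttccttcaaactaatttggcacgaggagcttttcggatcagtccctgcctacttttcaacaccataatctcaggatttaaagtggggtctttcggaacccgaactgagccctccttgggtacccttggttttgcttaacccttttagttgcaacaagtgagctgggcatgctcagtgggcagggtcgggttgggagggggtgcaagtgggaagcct
Hk2 (chr6:82774455-82774704, minus strand): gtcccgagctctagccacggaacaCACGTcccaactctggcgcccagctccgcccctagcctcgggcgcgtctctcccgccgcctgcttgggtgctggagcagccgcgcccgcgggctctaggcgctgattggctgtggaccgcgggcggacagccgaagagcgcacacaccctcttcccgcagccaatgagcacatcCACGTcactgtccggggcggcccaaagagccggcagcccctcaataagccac
Pgam1 (chr19:41911621-41911870, plus strand): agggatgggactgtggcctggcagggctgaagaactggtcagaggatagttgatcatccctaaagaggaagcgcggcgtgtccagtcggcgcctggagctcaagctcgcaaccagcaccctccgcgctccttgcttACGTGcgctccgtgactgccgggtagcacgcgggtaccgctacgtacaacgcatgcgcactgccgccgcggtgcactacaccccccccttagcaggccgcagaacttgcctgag
Ldha (chr7:46845554-46845803, plus strand): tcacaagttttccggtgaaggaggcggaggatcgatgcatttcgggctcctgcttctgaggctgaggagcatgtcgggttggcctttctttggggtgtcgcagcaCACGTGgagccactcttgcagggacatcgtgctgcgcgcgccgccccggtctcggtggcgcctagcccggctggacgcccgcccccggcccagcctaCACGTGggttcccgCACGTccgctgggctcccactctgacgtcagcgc

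Tpi1, Aldoc and Gpd2, whose levels separated GFPfoxp3 from GFPko cells most widely beside Slc2a3, had no match to ACGTG in these windows. Hk2 had 2 and Pgam1 had 1. Ldha, which did not pass the test in any comparison, had 5, of which 4 lie in 2 E-boxes. Of the 36 genes 35 had a window in the table, and none was found for Slc2a3. The HIF core was in the first window of 11 of 35 genes and in 17 of the 50 windows of all their starts, against 16.6% of all 32851 windows in the table. The E-box was in 3 of 35 first windows, against 6.02% of all windows. Other motifs were searched on both strands, also in first windows. The forkhead letters GTAAACA were in 0 of 35 against 3.17%, and the STAT letters TTCNNNGAA in 0 of 35 against 7.02%. The cAMP response element TGACGTCA was in 1 of 35 against 1.55%, and its part TGACG in 6 of 35 against 17.8%. Of all 50 windows the forkhead letters were in 1, the STAT letters in 2, the E-box in 4, TGACGTCA in 1 and TGACG in 8. A second start of Aldoc had 1 forkhead and 2 STAT matches, and a second start of Gpd2 had 1 match to ACGTG. The median GC content of all windows was 52.4%. First windows of the 35 genes ran from 36.4% for Pfkm to 76.4% for Slc16a1, and most lay above that median. The part of base composition in these shares was not tested. A match is a run of letters and does not show binding.

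**Figure D1:**
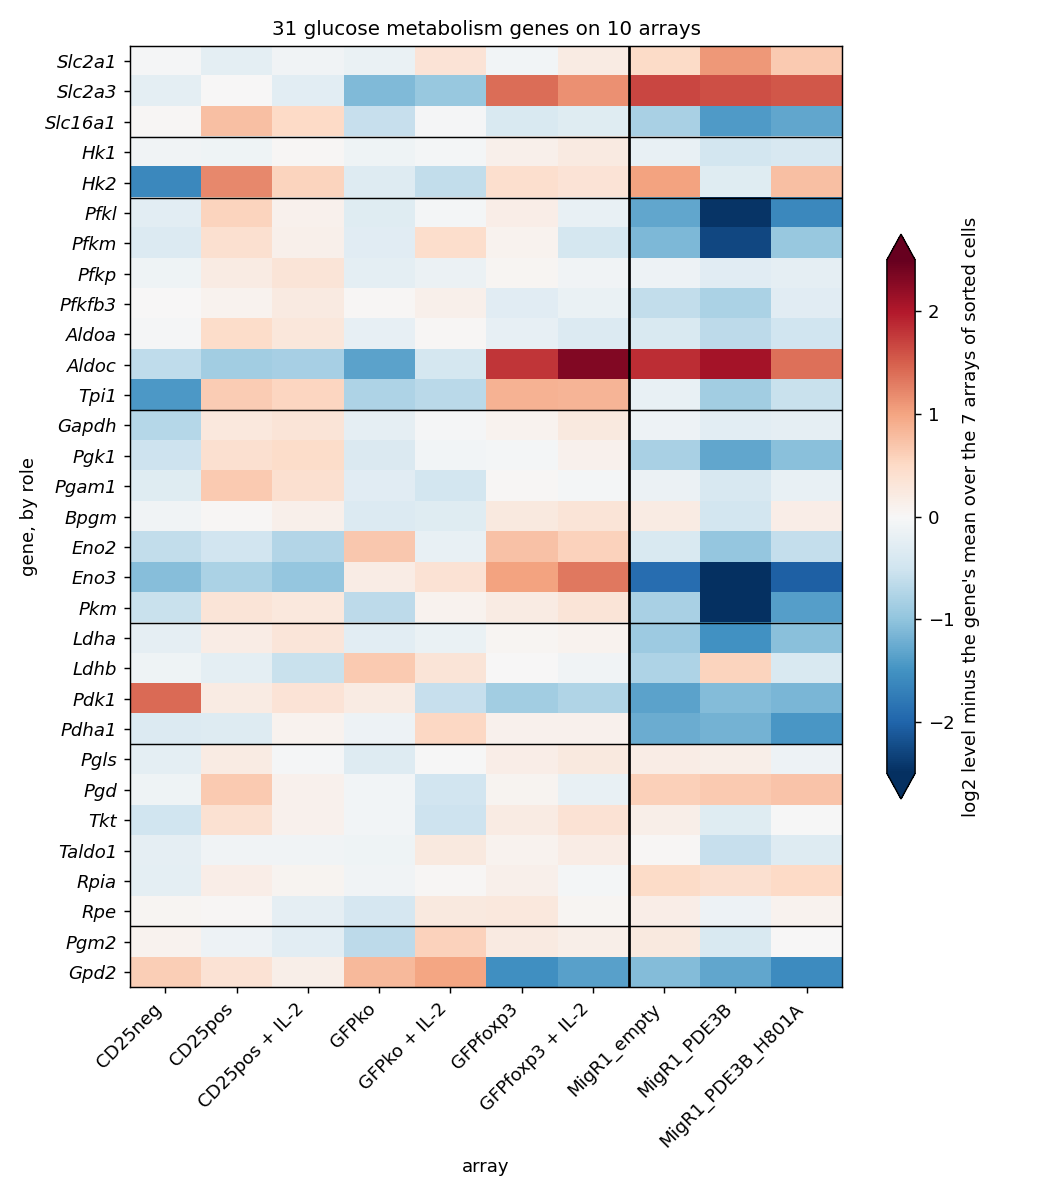
Log2 level of each of the 31 genes on each of the 10 arrays, as the difference from that gene's mean over the 7 arrays of sorted cells (red above, blue below, colours end at 2.5), with lines between roles and a thick line before the transduced cells. Slc2a3 and Aldoc are red, and Gpd2 blue, in GFPfoxp3 and transduced cells, while most other genes vary little among the sorted arrays.

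Several enzymes of the main line were read far above the array medians. On the 7 sorted arrays Gapdh, which converts the triose phosphate and reduces NAD, was at 12.09 to 13.12 by its 3′ control probe set. Pgk1, the kinase that follows it, was at 11.53 to 12.50, Pkm, the pyruvate kinase, at 10.45 to 11.42, and Ldha, which makes lactate, at 11.39 to 11.97. Aldoa, the common aldolase, was at 11.52 to 12.33, Tkt, the transketolase of the pentose phosphate pathway, at 12.30 to 13.20, and Hk1, the constitutive hexokinase, at 10.74 to 11.06. These levels come from different probe sets and give no order between genes. Within a gene the range over the 7 sorted arrays ran from 0.33 for Hk1 to 3.64 for Aldoc. The widest ranges after Aldoc belonged to Hk2 at 2.82, Slc2a3 and Gpd2 at 2.50 each, Eno3 at 2.36, Tpi1 at 2.30 and Pdk1 at 2.28. Slc2a1 was at 8.65 to 9.23, Slc16a1, which exports lactate, at 8.90 to 10.23, the platelet phosphofructokinase Pfkp at 9.95 to 10.53, Pfkfb3, which makes an activator of phosphofructokinase, at 6.23 to 6.75, and Pdha1, a subunit of pyruvate dehydrogenase, at 10.78 to 11.63.

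The 6 pentose phosphate genes varied little, with ranges of at most 1.15, that of Pgd. Pgd, which makes NADPH and ribulose phosphate, was at 9.98 to 11.12, and Pgls, the lactonase before it, at 8.32 to 8.88. Of the enzymes that interconvert sugar phosphates, Taldo1 was at 10.67 to 11.15, Rpia at 8.45 to 8.85 and Rpe at 7.49 to 8.18. None of the 6 passed limma's test or differed at least 2-fold in a pair of arrays described here, as read by the chosen probe set.

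GFPfoxp3 cells differed from GFPko cells in 5 of these genes. Slc2a3, the high-affinity glucose transporter, was 4.94-fold higher, Aldoc, a second aldolase known best from brain, 7.59-fold higher, and Tpi1, which interconverts the trioses, 2.99-fold higher. Bpgm, which makes the side product 2,3-bisphosphoglycerate, was 1.52-fold higher. Gpd2, the mitochondrial enzyme that passes electrons from glycerol phosphate to the respiratory chain, was 5.03-fold lower. The test was limma's moderated test on 6 arrays, those of the 3 populations measured in untreated and IL-2 treated mice, with terms for population and for IL-2 that add up. With Benjamini-Hochberg adjustment over all genes it called 4 of 31 genes higher and 1 lower at adjusted p under 0.05, or 16.1%, against 7.47% of all genes called in either direction, 5.44% higher and 2.03% lower. An unadjusted p under 0.05 was found for 13 of 31 and for 26.0% of all genes. Of all calls 72.9% were higher, and 51.4% when the arrays were centred on their medians. Without either GFPfoxp3 array or either GFPko array, which leaves 1 residual degree of freedom, 0 of 31 genes and 0 of all genes were called. Without either CD25pos array 4 of 31 and 408 of all genes were called.

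Slc2a3 was at 9.50 in GFPko cells and 9.65 after IL-2, and at 12.00 and 11.75 in GFPfoxp3 cells. It was at 10.61 and 10.33 in CD25pos cells and 10.36 in CD25neg cells. The 2 GFPfoxp3 arrays lay above, and the 2 GFPko arrays below, every other sorted array. GFPfoxp3 exceeded GFPko by 2.30 (SE 0.151, limma adjusted p = 0.00899) and CD25pos by 1.41 (SE 0.151, limma adjusted p = 0.0182). The probe set is marked for possible matches to other transcripts, and so is the second probe set above the array median. That one gave 2.52 between the untreated GFPfoxp3 and GFPko arrays beside 2.50 for the first. The probe sets of Slc2a3 without such a mark were below the median on every array, at 2.06 to 2.12 and 2.58 to 2.75. The difference therefore has no reading free of possible cross-matching. Transduced cells had Slc2a3 at 12.15 to 12.27.

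Aldoc was at 5.78 and 6.31 in GFPfoxp3 cells, and between 2.67 and 3.57 on the other 5 sorted arrays. It was below the array median in untreated GFPko cells and close above it on the remaining 4. The difference was 2.92 from GFPko (SE 0.229, limma adjusted p = 0.0118) and 2.90 from CD25pos (SE 0.229, limma adjusted p = 0.0102). As 1 of the 2 GFPko arrays was below the median, the fold against GFPko rests in part on a level at background. Transduced cells were also high, at 5.38 to 6.08. A second probe set of Aldoc lay below the array median on every sorted array, so it gave no second reading. It was at 2.72 and 2.79 in GFPfoxp3 cells and 2.90 and 2.83 in GFPko cells.

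Gpd2 ran the other way. Its level was 5.75 and 5.93 in GFPfoxp3 cells, and between 7.43 and 8.26 on the other 5 sorted arrays, with no overlap. The difference was -2.33 from GFPko (SE 0.144, limma adjusted p = 0.00826) and -1.69 from CD25pos (SE 0.144, limma adjusted p = 0.0117). All 3 probe sets of Gpd2 above the median on every array were lower in untreated GFPfoxp3 than in untreated GFPko cells, with differences of -2.36 to -1.91. Transduced cells lay at 5.70 to 6.19. Over the 7 sorted arrays Slc2a3 correlated with Gpd2 at r = -0.96 and with Bpgm at 0.92, and Aldoc with Gpd2 at -0.93, against a median of 0.25 over the 465 pairs of the 31 genes. These values describe 7 arrays of which 6 are pairs of the same population.

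Tpi1 was at 10.24 and 10.21 in GFPfoxp3 cells and 10.01 and 9.91 in CD25pos cells, and at 8.59 and 8.70 in GFPko and 7.94 in CD25neg cells. GFPfoxp3 exceeded GFPko by 1.58 (SE 0.106, limma adjusted p = 0.00928), and GFPko minus CD25pos was -1.32 (SE 0.106, limma adjusted p = 0.0215). GFPfoxp3 and CD25pos differed by 0.26, with a 95% interval of -0.03 to 0.55. Transduced cells lay at 8.51 to 9.19. The 3 probe sets of Tpi1 gave 0.93 to 1.65 between the untreated GFPfoxp3 and GFPko arrays. Bpgm was at 8.22 and 8.30 in GFPfoxp3 cells, against 7.64 and 7.68 in GFPko cells, with 7.90 to 8.10 in the other sorted cells and 7.52 to 8.18 in transduced cells. GFPfoxp3 minus GFPko was 0.60 (SE 0.0944, limma adjusted p = 0.0415). Its call was lost when the arrays were centred on their medians (difference 0.45), under quantile normalization (0.54), without the probe sets marked for cross-matching (0.95), with a trended, robust variance (0.60) and when any 1 array was left out (0.58 to 0.63).

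**Figure D2:**
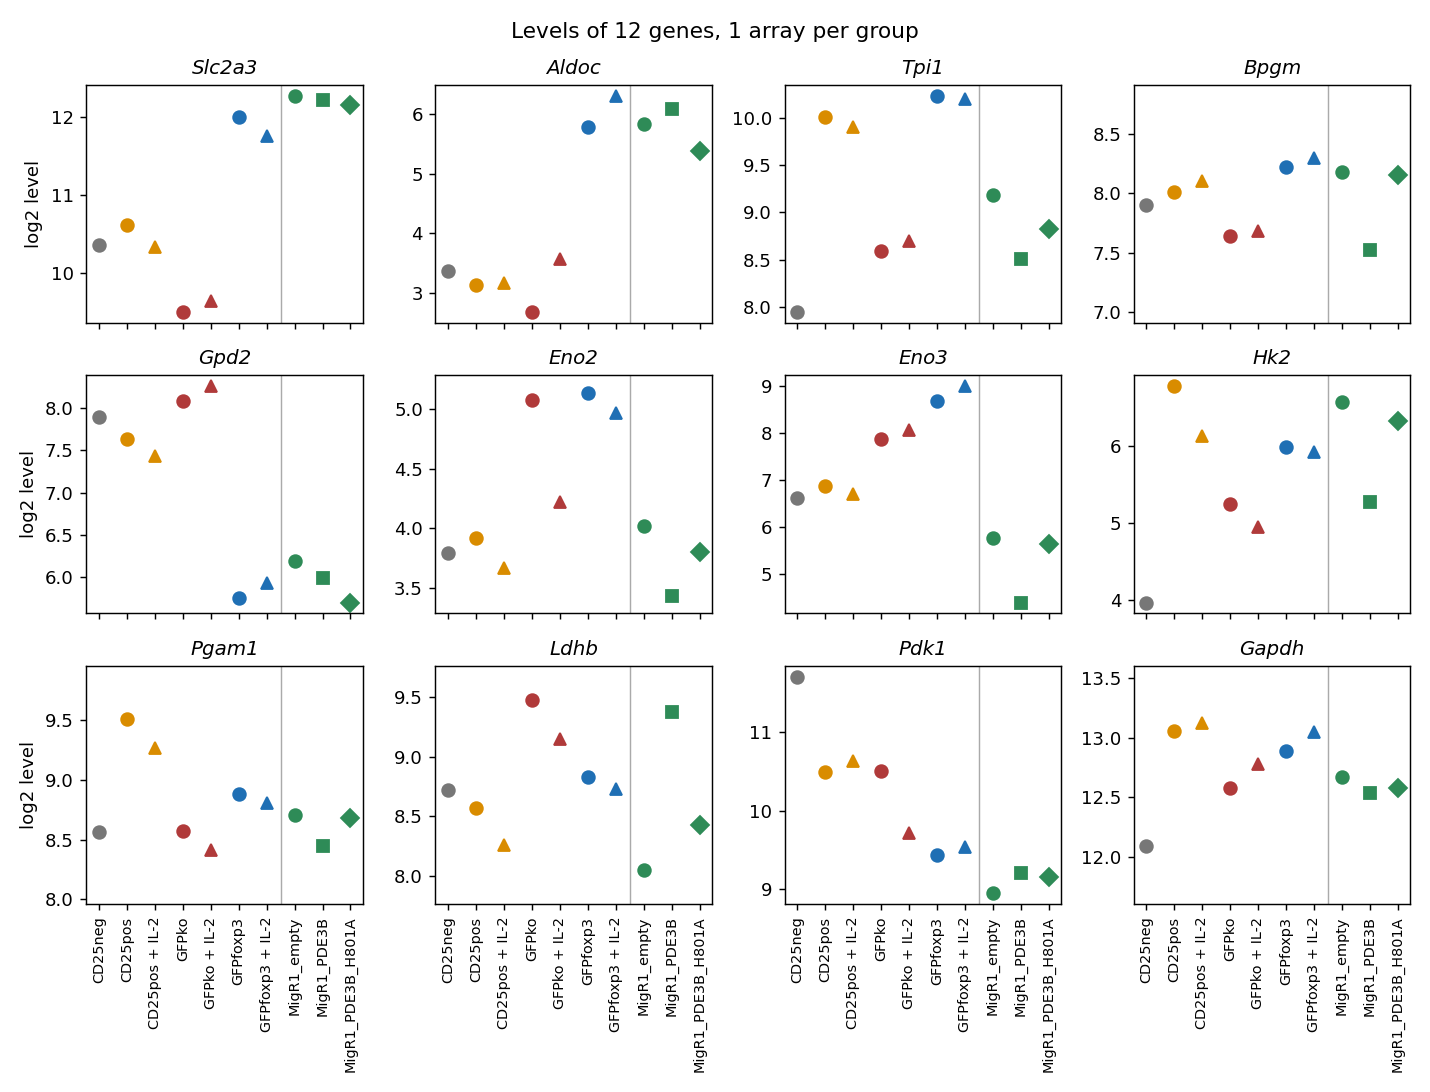
Log2 level of 12 genes (vertical axes, each with its own range) on the 10 arrays (horizontal axis), 1 point per array, with triangles for IL-2 and green for transduced cells. Slc2a3 reaches 12.00 in GFPfoxp3 cells against 9.50 in GFPko cells, and Gpd2 falls from 8.09 in GFPko to 5.75 in GFPfoxp3 cells.

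Against CD25pos cells, which lack Foxp3 protein by their sort but bear the IL-2 receptor chain CD25, 2 enolases passed the test. Enolases make phosphoenolpyruvate, and Eno3 and Eno2 are the forms best known from muscle and neurons. Limma called 4 of 31 genes higher in GFPfoxp3 cells (Slc2a3, Aldoc, Eno3 and Eno2) and 1 lower (Gpd2), against 8.73% of all genes in either direction, 5.28% higher and 3.45% lower. With arrays centred on their medians, and likewise with probe sets averaged, 4 were called higher and 5 lower. Without either GFPfoxp3 array 0 of the list and 0 of all genes were called, without CD25pos 2 and 167, without CD25pos_IL2 3 and 182, and without either GFPko array 6 and 836. Eno3 was at 8.68 and 8.99 in GFPfoxp3 cells, 7.86 and 8.05 in GFPko cells, 6.88 and 6.71 in CD25pos cells and 6.62 in CD25neg cells. The populations did not overlap, and GFPfoxp3 exceeded CD25pos by 2.04 (SE 0.153, limma adjusted p = 0.00903). Between GFPfoxp3 and GFPko, Eno3 differed by 0.88 with limma adjusted p = 0.0511, and it passed the test under median centring (0.73), with probe sets averaged (0.88) and without the cross-matching probe sets (0.88).

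Eno2 was at 5.14 and 4.97 in GFPfoxp3 cells and 3.92 and 3.67 in CD25pos cells, a difference of 1.26 (SE 0.208, limma adjusted p = 0.0414). GFPko cells spanned the gap, at 5.08 without and 4.22 with IL-2, and CD25neg cells were at 3.79. Transduced cells lay at 3.43 to 4.02. Some genes that did not pass the test had negative differences between GFPfoxp3 and CD25pos cells. Aldoa was at -0.65 (limma adjusted p = 0.0772), Pgam1 at -0.54 (limma adjusted p = 0.0547) and Pgk1 at -0.41 (limma adjusted p = 0.117). The lactate transporter Slc16a1 was at -0.97 (limma adjusted p = 0.0793), and Pdk1, a kinase that switches pyruvate dehydrogenase off, at -1.07 (limma adjusted p = 0.10). Aldoa, Pgam1 and Pdk1 passed the test under median centring (-0.66, -0.55 and -1.08) and with probe sets averaged (-0.60, -0.54 and -1.13), Pgam1 also under quantile normalization (-0.57), Pgk1 with probe sets averaged (-0.44) and Slc16a1 under median centring (-0.98). Hk1, Tpi1 and Bpgm lay on the other side, at 0.21, 0.26 and 0.21, and did not pass.

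GFPko cells, in which the locus is transcribed without Foxp3 protein, were set against CD25pos cells with the same model. Hk2, the inducible hexokinase, was 2.57-fold lower, Tpi1 2.49-fold lower and Pgam1, the phosphoglycerate mutase, 1.86-fold lower. Eno3 was 2.23-fold higher and Ldhb, the lactate dehydrogenase form that favours pyruvate, 1.87-fold higher. Limma thus called 2 of 31 genes higher and 3 lower, against 3.48% of all genes in either direction, 1.25% higher and 2.24% lower. Of all calls 35.8% were higher, and 51.6% after centring on array medians. Hk2 was at 5.24 and 4.95 in GFPko cells, 6.78 and 6.13 in CD25pos cells and 5.99 and 5.92 in GFPfoxp3 cells (a difference of -1.36, SE 0.171, limma adjusted p = 0.0395). CD25neg cells had the lowest Hk2, at 3.96.

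Pgam1 was at 8.57 and 8.41 in GFPko cells and 9.51 and 9.27 in CD25pos cells (-0.90, SE 0.101, limma adjusted p = 0.0343). Ldhb was at 9.48 and 9.15 in GFPko cells and 8.57 and 8.26 in CD25pos cells (0.90, SE 0.113, limma adjusted p = 0.0395). GFPfoxp3 cells lay between for both, at 8.88 and 8.81 for Pgam1 and 8.83 and 8.73 for Ldhb. CD25neg cells were at 8.56 and 8.72, and transduced cells had Pgam1 at 8.45 to 8.71. Eno3 differed by 1.16 (SE 0.153, limma adjusted p = 0.0436). Without the filter on dim genes 0 of these 5 calls were made, and 33 of all genes were called. When any 1 of the 6 arrays was left out, 0 of the 5 and 0 of all genes were called, while the difference ran from -1.60 to -1.13 for Hk2 and from -1.40 to -1.23 for Tpi1.

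**Figure D3:**
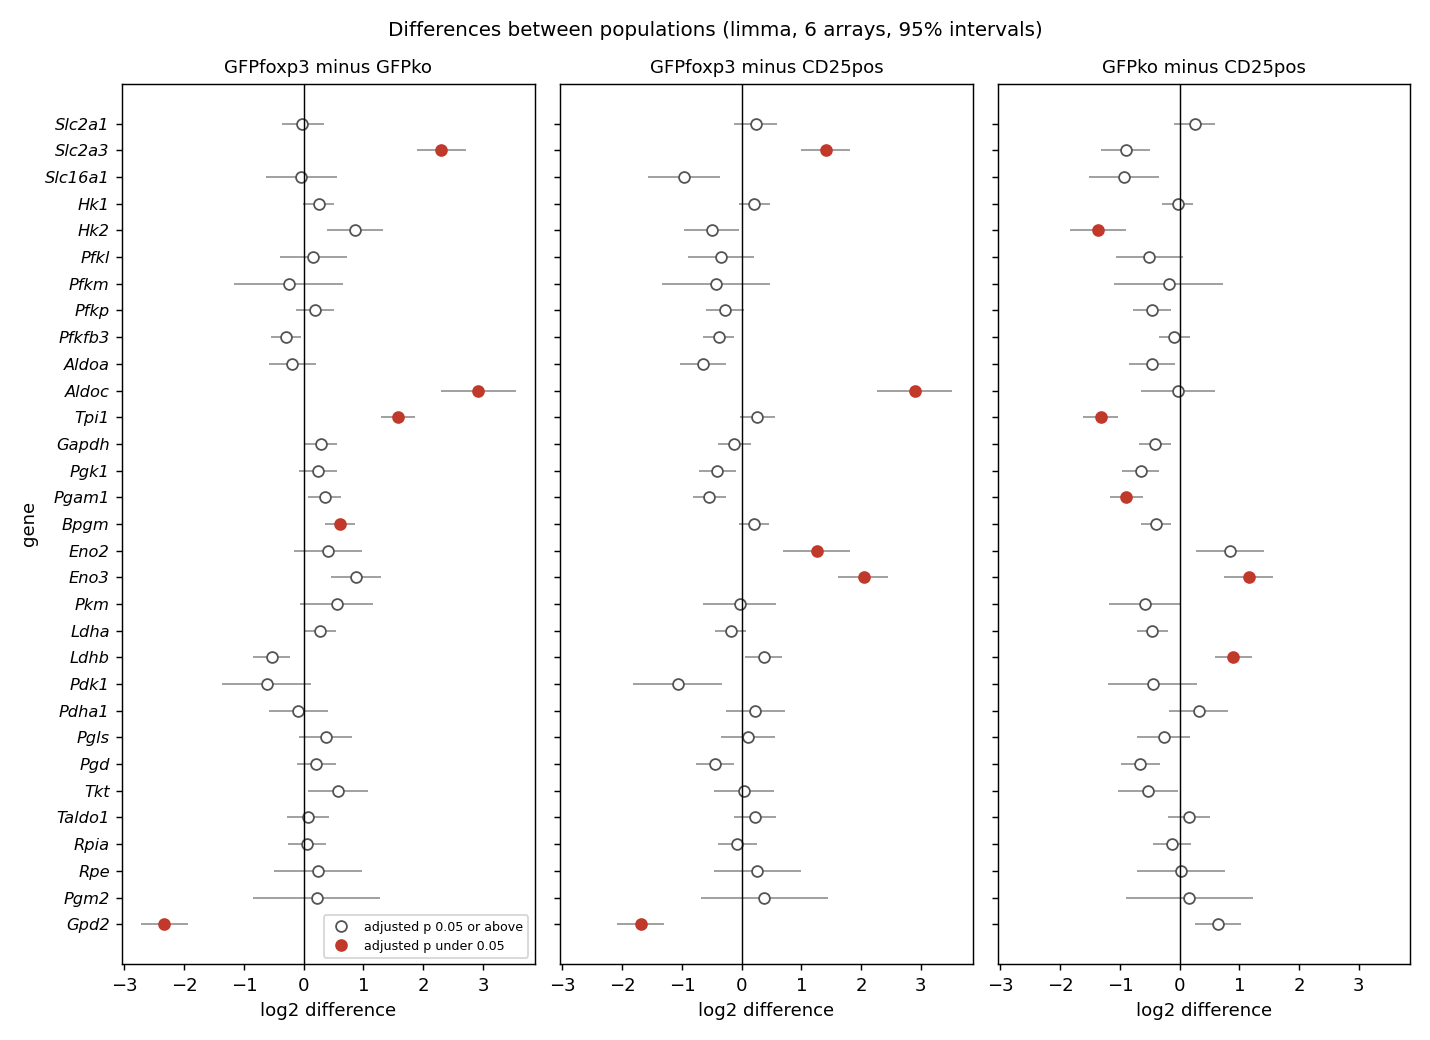
Log2 differences of the 31 genes between populations (horizontal axis, 0 marked), with 95% intervals from limma's additive model on 6 arrays; filled red points have adjusted p under 0.05 over all genes. Each panel has 5 filled points, and the largest is Aldoc at 2.92 for GFPfoxp3 minus GFPko.

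The median difference over the 31 genes was 0.24 for GFPfoxp3 minus GFPko, against 0.01 over all genes, -0.03 against -0.03 for GFPfoxp3 minus CD25pos, and -0.40 against -0.01 for GFPko minus CD25pos. Levels were also taken relative to each gene's mean over the sorted arrays. Among these arrays the median of the 31 was highest in untreated CD25pos cells, at 0.20. It was lowest in untreated GFPko and CD25neg cells, at -0.25 and -0.24. Of the 31 genes 6 lay above that mean in untreated GFPko cells, against 44.1% of all genes, and 6 in CD25neg cells, against 46.8%. In untreated CD25pos cells 22 lay above it, against 50.7% of all genes, and in untreated GFPfoxp3 cells 24, against 45.8%. The 3 population comparisons share arrays, so they are not independent of each other.

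Genes of cell division also differed between some of these populations. Of 27 proliferation genes, limma called 15 higher in GFPfoxp3 than in GFPko cells, against 5.44% of all genes. It called 0 in GFPfoxp3 against CD25pos (14 of 27 lay higher). In GFPko cells 10 were lower than in CD25pos cells, against 2.24% of all genes. Aurka, a mitotic kinase, differed by 2.83 (SE 0.191, limma adjusted p = 0.00928) between GFPfoxp3 and GFPko. Among B cell markers 3 of the 6 genes kept were higher in GFPfoxp3 than in GFPko cells (Cd74, Ighm and Cd79b), and the other 3 lay lower without passing, among them H2-Aa at 3.69 and 4.02 against 5.07 and 5.60. The B cell list had a summed level over 8 markers of 40.3 and 41.1 against 35.8 and 37.2, while Cd79a and Pax5 were below the median on every array. Among myeloid markers 1 of 5 was lower (Fcgr3) and the other 4 had negative differences that did not pass, with summed levels over 9 markers of 23.6 and 24.0 against 26.8 and 29.1. Of 5 CD8 and NK cell markers 3 (Klrd1, Eomes and Klrk1) were lower in GFPfoxp3 and in GFPko than in CD25pos cells. The others, Cd8a and Cd8b1, did not pass, and lay lower in GFPfoxp3 but higher in GFPko than in CD25pos cells. Cd8b1 was at 4.86 and 5.53 in GFPko cells against 4.47 and 4.48 in CD25pos cells. Summed levels over 6 markers were 33.1 and 32.2 in CD25pos cells against 18.8 to 21.6 in GFPfoxp3 and GFPko cells. The part of cell division and of these cell types in the glucose genes' differences was not tested. On the untreated arrays the 3′ to 5′ distance of Actb was 3.07 in GFPfoxp3, 3.69 in GFPko and 3.80 in CD25pos cells. The part of RNA quality was not tested either. The number of backcross generations differed between GFPko and the other mice and cannot be told apart from the Foxp3 allele. Fewer cells of a type and less RNA per cell cannot be told apart in these bulk samples.

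Regulators of the pathway were read from further lists. Limma called 4 of 29 regulators higher in GFPfoxp3 than in GFPko cells and 1 lower, against 5.44% and 2.03% of all genes. Hif1a, the oxygen-regulated HIF subunit, which is named here after its values were seen, was at 12.22 and 12.25 in GFPfoxp3 cells, 11.33 and 11.45 in GFPko and 11.61 and 11.56 in CD25pos cells, and exceeded GFPko by 0.84 (SE 0.102, limma adjusted p = 0.0259). Egln3 and Vhl, which mark HIF for destruction, were higher by 1.23 and 0.87, and Mxi1, a Myc antagonist, by 1.08. Epas1, the related HIF subunit, was lower, at -1.30 (SE 0.170, limma adjusted p = 0.0292). Against CD25pos cells 2 of 29 were higher (Mxi1 by 1.17 and Hif1a by 0.64) and Epas1 was lower, at -2.95. Of all genes 5.28% were higher and 3.45% lower there. GFPko was below CD25pos in 1 of 29, Epas1, at -1.65, against 2.24% of all genes.

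Of 11 hypoxia-induced genes outside glycolysis 1 was higher in GFPfoxp3 than in GFPko cells, P4ha1, a collagen prolyl hydroxylase, by 1.67. Against CD25pos cells P4ha1 was higher by 1.92 and Ero1a, an oxidase of the endoplasmic reticulum, lower, at -1.15. Ero1a was also lower in GFPko than in CD25pos cells, at -1.09. Of 35 further glucose genes 2 were higher in GFPfoxp3 than in GFPko cells, Pgm1, a phosphoglucomutase, by 1.06 and Pdk3 by 0.92, 0 passed against CD25pos, and Adpgk was higher in GFPko than in CD25pos cells by 0.87. Of 23 genes of the citric acid cycle and its shuttles Got1 was higher by 1.54 in GFPfoxp3 than in GFPko cells. Idh2 was lower in GFPfoxp3 than in CD25pos cells, at -0.68, and 0 passed between GFPko and CD25pos. Over all genes, 5.44% were called higher and 2.03% lower between GFPfoxp3 and GFPko. Against CD25pos these shares were 5.28% and 3.45% for GFPfoxp3, and 1.25% and 2.24% for GFPko.

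CD25neg cells, the conventional CD4 T cells of the set, have 1 array and no test, and differences of at least 2-fold are described. GFPfoxp3 cells were at least 2-fold higher in 6 of 31 genes and lower in 2, against 10.9% of all genes in either direction, 7.31% higher and 3.63% lower. Aldoc differed by 2.41, Tpi1 by 2.30, Eno3 by 2.05, Hk2 by 2.03, Slc2a3 by 1.64 and Eno2 by 1.35, and Pdk1 by -2.28 and Gpd2 by -2.13. Pdk1 was at 11.71 in CD25neg cells and at 9.43 and 9.54 in GFPfoxp3 cells, with CD25pos and GFPko cells between at 9.71 to 10.63 and transduced cells at 8.95 to 9.21. All 4 probe sets of Pdk1 were lower in GFPfoxp3 than in CD25neg cells, with differences of -2.49 to -1.49.

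GFPko cells were at least 2-fold higher than CD25neg cells in 3 of 31 genes (Eno2 by 1.29, Hk2 by 1.28 and Eno3 by 1.24) and lower in 1 (Pdk1 at -1.21), against 6.73% of all genes, 3.93% higher and 2.8% lower. CD25pos cells were higher in 2 (Hk2 by 2.82 and Tpi1 by 2.07) and lower in 1 (Pdk1 at -1.22), against 7.25% of all genes, 5.55% higher and 1.69% lower. Of those differences over all genes 76.6% were higher, and 63.4% after centring on array medians. The 3 comparisons share the CD25neg array. Of the 27 proliferation genes 19, 11 and 22 were at least 2-fold higher in GFPfoxp3, GFPko and CD25pos cells, and their part was not tested.

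No glucose gene passed the test for IL-2. Over the 3 populations limma called 0 of 31 genes, against 0.235% of all genes, and 2 of 31 had an unadjusted p under 0.05 against 10.6% of all genes. These were Slc2a1, the basal glucose transporter, at 0.30 (SE 0.106, limma adjusted p = 0.470), and Pgd at -0.41 (SE 0.0979, limma adjusted p = 0.354). Each had the same sign in all 3 populations. The 3′ to 5′ distance of Actb was 2.70, 2.76 and 2.86 in GFPfoxp3, GFPko and CD25pos cells with IL-2, against 3.07, 3.69 and 3.80 without. That of Gapdh was 5.53, 5.27 and 5.24, against 5.55, 5.94 and 6.43. The part of RNA quality in the IL-2 differences was not tested. The median 95% interval of the 31 genes, not adjusted for the number of genes, reached 0.32 to either side. Much larger differences also failed the adjusted test, such as that of the proliferation gene Cdk1 at 2.12 (SE 0.219, limma adjusted p = 0.102). A missing call therefore does not show that a difference is absent. In the same fit 27 of 27 proliferation genes lay higher with IL-2, with a median of 1.48, and 7 passed the test. Under quantile normalization, without the filter on dim genes, with a trended, robust variance and with any 1 array left out, 0 of all genes passed, proliferation genes included.

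By population, no gene of the 31 differed at least 2-fold in GFPfoxp3 cells, where 1.95% of all genes did (1.73% higher and 0.218% lower), or in CD25pos cells, where 1.35% did (0.997% higher and 0.352% lower). In GFPko cells 1 did, against 4.92% of all genes (2.91% higher and 2.0% lower), Pgm2, a phosphopentomutase, at 6.21 without and 7.44 with IL-2, and at 6.47 to 7.10 on the other arrays. Of such differences over all genes in GFPko cells 59.3% were higher, and 46.4% after centring on array medians. Its differences were -0.09 in GFPfoxp3 and -0.15 in CD25pos cells. Medians of the 31 genes were 0.03 in GFPfoxp3, 0.17 in GFPko and -0.15 in CD25pos cells, with proliferation medians of 1.35, 1.51 and 1.43. Aldoc, not above the array median in untreated GFPko cells, was at least 1.37-fold higher with IL-2 there. Other genes with wide differences in GFPko cells were Pkm at 0.74, Pfkm, the muscle phosphofructokinase, at 0.71, Pdk1 at -0.79 and Eno2 at -0.86. These counts and differences hold for the chosen probe sets. In GFPko cells a further probe set of Slc2a1 went from 6.39 to 7.85 with IL-2, and 1 of Pdk1 from 5.62 to 4.33. In CD25pos cells the 5′ control probe set of Gapdh went from 6.63 to 7.88, and a dim probe set of Hk1 from 2.89 to 3.94. Among 29 regulators in GFPko cells 1 was at least 2-fold higher with IL-2 and 4 lower, against 2.91% and 2.0% of all genes. Myc differed by 2.10 and Ddit4, an inhibitor of mTOR signalling, by -2.75. In the same order they differed by 0.85 and -0.7 in GFPfoxp3 cells and by 0.21 and 1.16 in CD25pos cells. In GFPko cells 4 of 9 regulatory T cell markers were also at least 2-fold higher with IL-2. So were Lyz2 among 5 myeloid, H2-Ab1 among 6 B cell and Klrd1 among 5 CD8 and NK cell markers. Of these 3 lists 3, 3 and 2 lay higher by any amount. The only such marker difference in GFPfoxp3 and CD25pos cells was a lower Foxp3 in CD25pos cells. The part of cell composition was not tested.

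**Figure D4:**
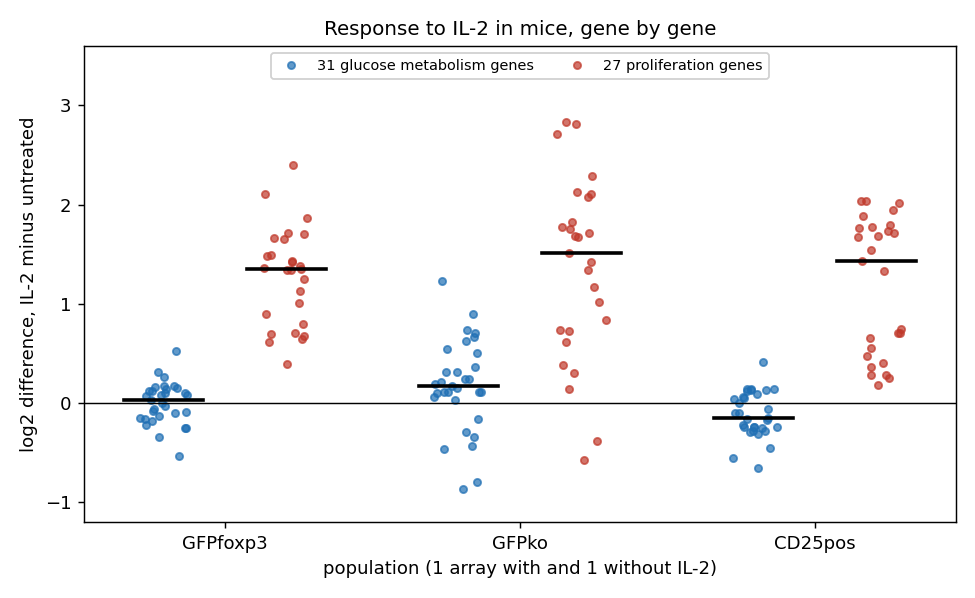
Log2 difference between the array with IL-2 and the array without (vertical axis) in 3 populations, for the 31 glucose metabolism genes (blue) and 27 proliferation genes (red), with 1 point per gene and a bar at the median. The glucose genes centre on 0.03, 0.17 and -0.15, and the proliferation genes on 1.35, 1.51 and 1.43.

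Among transduced cells, those with the PDE3B vector had lower values of several glycolytic genes than those with the empty vector. They were at least 2-fold lower in 5 of 31 genes and higher in 1, against 5.44% of all genes in either direction, 4.25% lower and 1.2% higher. Pkm was at 10.29 with the empty vector, 9.73 with PDE3B(H801A) and 8.41 with PDE3B. Eno3 was at 5.77, 5.64 and 4.40, Hk2 at 6.58, 6.32 and 5.27, Pfkl, the liver phosphofructokinase, at 7.21, 6.88 and 6.04, and Pfkm at 5.01, 5.19 and 3.87, in the same order. Ldhb was at 8.05, 8.43 and 9.38. In sorted cells Pfkl was at 8.20 to 9.05 and Pfkm at 5.71 to 6.58.

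With PDE3B(H801A) 0 of 31 genes differed at least 2-fold from the empty vector, against 2.29% of all genes, 0.93% higher and 1.37% lower. PDE3B was at least 2-fold below PDE3B(H801A) in 4 of 31 (Pkm at -1.32, Pfkm at -1.31, Eno3 at -1.24 and Hk2 at -1.06), against 3.04% of all genes, 0.737% higher and 2.3% lower. The 3 comparisons share arrays. Over the list 25 of 31 genes were lower with PDE3B than with the empty vector, and so were 59.5% of all genes. With PDE3B(H801A) 24 of 31 were lower than with the empty vector. In that comparison 22.6% of the 31 genes and 41.0% of all genes were higher. Slc2a3, Aldoc and Gpd2, which separated GFPfoxp3 from other sorted cells, differed by -0.06, 0.24 and -0.20 between PDE3B and the empty vector. Further probe sets of Gpd2 above the array median gave -0.91 and -0.68.

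Probe sets of a gene disagreed on these arrays. For Pgd 1 probe set differed by -2.17 between PDE3B and the empty vector and the other 3 by 0.07, -0.02 and 0.35. For Pfkl 2 probe sets gave -1.17 and 0.56, and another was at 4.81 with the empty vector, 4.49 with PDE3B(H801A) and 2.77, below the array median, with PDE3B. For Tkt the differences were -0.44 and -1.33. For Ldhb they ran from 0.13 to 1.34. The Gapdh control probe sets gave -0.12 at the 3′ end, -0.85 in the middle and -0.50 at the 5′ end. Of 16 genes with several probe sets above the median on the 3 arrays, 7 had probe sets of both signs. A difference that rounded to 0 counted for neither sign, as for 1 probe set of Slc2a1. Pkm, Eno3, Hk2 and Pfkm had 1 probe set each, so no second reading was at hand.

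The 3′ to 5′ distance of Gapdh was 7.99 with PDE3B, 7.62 with the empty vector and 7.47 with PDE3B(H801A), and that of Actb was 6.38, 5.87 and 5.95. Centring arrays on their medians moved the share of higher genes among all at least 2-fold differences from 22% to 50.4% for PDE3B against the empty vector, from 40.5% to 55.5% for PDE3B(H801A) against it, and from 24.2% to 43.5% between the PDE3B vectors. Under that centring Pfkl and Pfkm fell short of 2-fold against the empty vector, at -0.96 and -0.92. Hk2 fell short against PDE3B(H801A), at -0.93. Of 27 proliferation genes 5 were at least 2-fold lower with PDE3B than with the empty vector and 0 higher. The part of RNA quality, scaling and cell division in these differences was not tested.

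**Figure D5:**
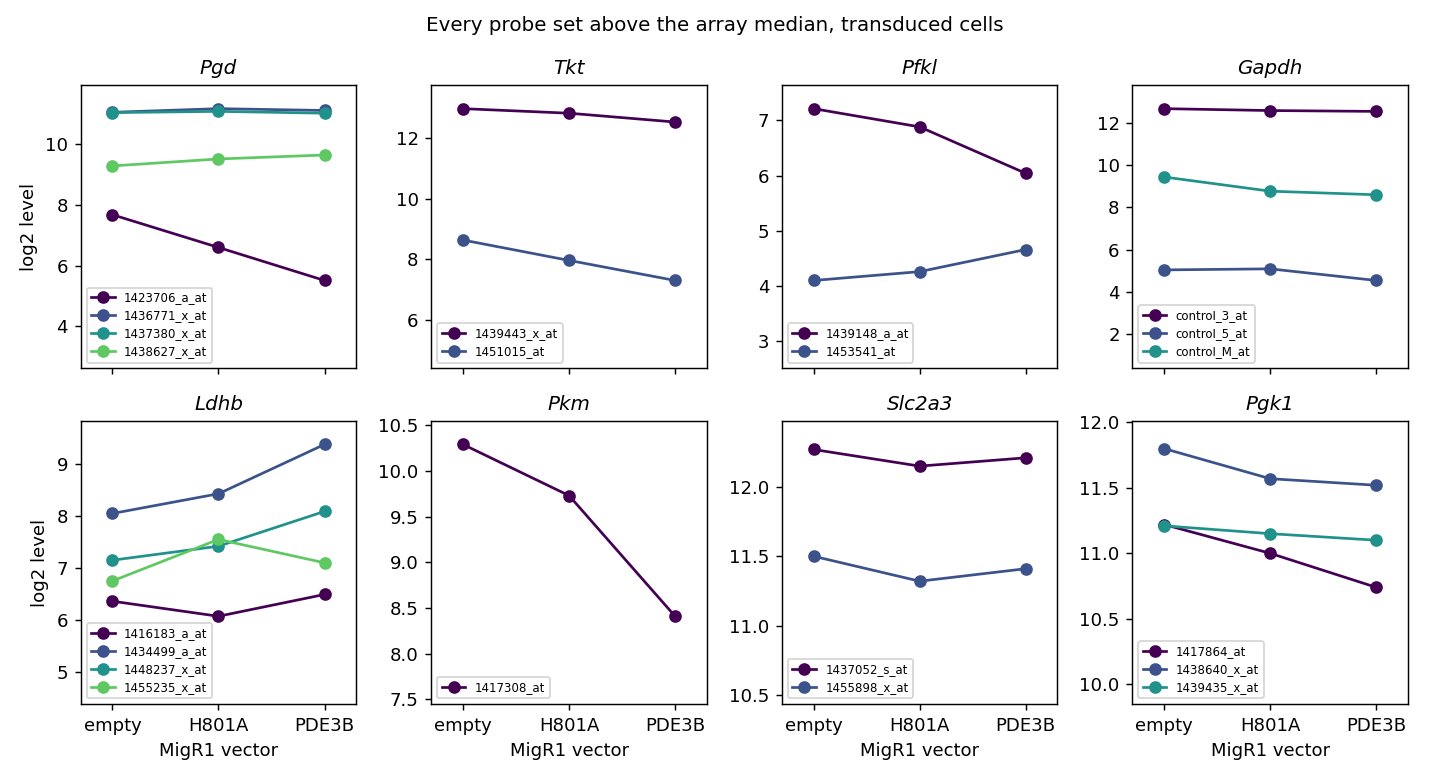
Log2 level (vertical axes, each with its own range) of every probe set above the array median for 8 genes in transduced cells, with the vector on the horizontal axis and 1 line per probe set. The lines of Pgd run flat in 3 probe sets and down by 2.17 in 1, and the single probe set of Pkm goes from 10.29 to 8.41.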

How the data were processed

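The authors deposited 1 table of log2 expression with 45101 probe sets for 10 Affymetrix mouse arrays, normalized together per the labels' design text. Per the labels' protocols, cRNA was made in 2 rounds of amplification, which favours 3′ ends. Software for these steps is not named in the sources used here. The log2 scale was read from the values.

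Gene names came from the platform annotation, with symbols updated by Entrez ID. Of all, 34958 had 1 gene, 932 several and 9211 none, 64 of the whole being control probe sets, of which the Gapdh ones were used. Genes were kept if at least 1 array reached its median over all probe sets. Population and IL-2 effects were fitted additively on 6 arrays with limma 3.58.1 in R 4.3.3 (lmFit, eBayes). The 2 residual degrees of freedom come only from their interaction, so a difference in IL-2 response between populations could not be tested. The p-values set each difference against how unevenly the populations moved with IL-2, moderated over genes. They do not measure a spread between replicates. Adjusted p was called under 0.05. Other comparisons had 1 array a side. The fit was tested on simulated data in 1 draw, where it recovered the sizes of change but made more false calls than the nominal share, so adjusted p-values near the threshold are to be read with care.

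The genes, lists and tests were chosen with earlier results of these data known, and the printed upstream sequences and the motifs after the values were seen. Values by array, or their range, were given for genes called, for genes at least 2-fold apart in pairs, and for bright genes of each step. In other lists up to 4 called genes were named. Alternatives covered scaling, the filter, the probe set rule, the variance model, the arrays used and a 3-fold limit.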

Additional observations from a re-analysis of the deposited data

Results flagged for a closer look

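The IL-2 difference had opposite signs in at least 2 of the 3 populations for 17 of the 31 genes, as it did for 64.8% of all genes. Each population has 1 array with IL-2 and 1 without, and the difference between populations was not tested. Differences spread most for Pgm2, at -0.09 in GFPfoxp3, 1.23 in GFPko and -0.15 in CD25pos cells, and for Pfkm, at -0.53, 0.71 and -0.28. None of the 31 genes moved 1.5-fold or more in both directions, and 0.586% of all genes did.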

How the results depend on the processing

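No paired analysis was possible because replicate numbers pair nothing with 1 array a group, beyond the matching of untreated and IL-2 arrays by population that the model already holds. For GFPfoxp3 minus GFPko, leaving out 1 array gave 0 to 4 calls among the 31 genes instead of 5, for GFPfoxp3 minus CD25pos 0 to 6 instead of 5, and for GFPko minus CD25pos 0 in each case. Each of these fits has 1 residual degree of freedom, and the lone array of a population is assumed to vary like the others. Centring arrays on their medians gave 9 calls for GFPfoxp3 minus CD25pos, 4 higher and 5 lower, and 8 for GFPko minus CD25pos, and it moved the median of all genes to -0.14 for GFPfoxp3 minus GFPko, 0.13 for GFPko minus CD25pos and 0.16 for PDE3B minus empty vector. Averaging probe sets gave 9 for GFPfoxp3 minus CD25pos, again 4 higher and 5 lower. Without the filter on dim genes, which tests more genes, 0 were called for GFPko minus CD25pos, and Aldoc lost its call against GFPko and Slc2a3 and Eno2 theirs against CD25pos. A 3-fold limit left 0 genes for GFPko minus CD25neg, 0 for IL-2 in GFPko, 1 for PDE3B minus empty vector and 0 for PDE3B minus PDE3B(H801A). Without cross-matching probe sets, 1 gene instead of 0 passed for PDE3B(H801A) minus empty vector. No called gene of the list changed sign under the settings tried, but the balance of calls over all genes turned with centring, from 35.8% to 51.6% higher for GFPko minus CD25pos, 59.3% to 46.4% for IL-2 in GFPko and 40.5% to 55.5% for PDE3B(H801A) minus empty vector. Slc2a3 ranged from 1.19 to 2.33 and Aldoc from 1.41 to 2.92 for GFPfoxp3 minus GFPko over these settings, arrays left out apart. Slc2a3 had no value in the setting without cross-matching probe sets.

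Over all genes, the calls for GFPfoxp3 minus GFPko went from 892 to 1373 with centring and 382 without the filter, for GFPfoxp3 minus CD25pos from 1042 to 609 without the filter, for GFPko minus CD25pos from 416 to 858 and 33, and for IL-2 from 28 to 121 with centring and 0 with quantile normalization, without the filter and with a trended, robust variance. Averaging probe sets lowered the 2-fold counts of GFPko and CD25pos against CD25neg from 803 to 515 and 865 to 573, of IL-2 in GFPfoxp3, GFPko and CD25pos from 233 to 143, 587 to 293 and 161 to 93, and of the vector comparisons from 650 to 372, 274 to 156 and 363 to 188. In the same order, with GFPfoxp3 against CD25neg first (1306 to 613), the 3-fold limit left 325, 306, 64, 127, 35, 126, 53 and 61. The causes were not tested.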
